A study of Rattus norvegicus with 6 samples.

Results

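The genes described here belong to interleukin signalling in rat liver: Stat3, the cytokine gene Il1b, the receptor genes Il1r1, Il6r and Il6st, the antagonist gene Il1rn, the kinase genes Jak1 and Jak2, the feedback inhibitor Socs3 and the adaptor Myd88. They were read from every probe set of the array that the platform annotation gives exactly 1 of these symbols, which came to 17 of the 31099 probe sets, 2 of them for Stat3. All 10 genes, of 14218 that the array measures under a single symbol, had at least 1 probe set, and all 17 probe sets passed the filter on low signal. The 10 genes were chosen by their differences between these groups of arrays, so their values are given as a description without a test. The samples were 6 liver samples in 2 groups of 3, 1 array each. All rats were first made hypercholesterolemic by 30 d on a fat-rich diet and were kept on it for another 30 d, when they received 1 ml of normal saline a day into the stomach, plain in the high-fat control group and carrying the probiotic bacterium Lactobacillus casei Zhang in the probiotic group. There was no group on a normal diet, and the labels used here give no strain, age or sex and do not say that each sample was 1 animal.

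IL-6 binds its receptor Il6r, and the complex engages the shared signal chain Il6st, whose Janus kinases Jak1, Jak2 and Tyk2 phosphorylate the transcription factor Stat3. Stat3 enters the nucleus of the hepatocyte and drives acute phase genes and Socs3, whose protein shuts the receptor complex down. IL-1 beta binds Il1r1, which signals through Myd88 to NF-kB, and Il1rn competes with it for the receptor. In liver, Kupffer cells, the resident macrophages, are a main source of both cytokines, and hepatocytes are the main responders.

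The promoters of 9 of the 10 genes matched by symbol in RefSeq, each as the 250 bases before to 50 bases after the annotated start on the GRCr8 build, and Jak1 had no match. They were searched on both strands for the STAT motif TTCNNNGAA, for GACGTC, the core of the cAMP response element, and for TTGCNNAA, a C/EBP motif. These motifs were chosen after the windows had been looked at. Windows of 3 genes held 1 or more of them and are printed 5′ to 3′ on the strand of the gene, with the motifs in capitals: Stat3 (chr10:86363310-86363609, minus strand) and Il1b (chr3:137036532-137036831, minus strand) because each had a probe set lower in every probiotic array, and Myd88 (chr8:127956181-127956480, minus strand) because it was the member whose window held the STAT motif.
Stat3: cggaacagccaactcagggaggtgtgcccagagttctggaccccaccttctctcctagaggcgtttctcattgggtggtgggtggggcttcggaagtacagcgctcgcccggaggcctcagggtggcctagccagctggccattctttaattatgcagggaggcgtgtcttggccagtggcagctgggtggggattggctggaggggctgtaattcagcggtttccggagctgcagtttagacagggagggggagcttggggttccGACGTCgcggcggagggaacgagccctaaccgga
Il1b: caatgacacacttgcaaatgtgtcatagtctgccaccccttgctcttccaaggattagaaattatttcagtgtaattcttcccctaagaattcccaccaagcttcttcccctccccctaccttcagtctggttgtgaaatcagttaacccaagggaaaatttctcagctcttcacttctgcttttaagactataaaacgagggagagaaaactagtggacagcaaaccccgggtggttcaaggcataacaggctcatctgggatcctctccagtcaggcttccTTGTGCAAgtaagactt
Myd88: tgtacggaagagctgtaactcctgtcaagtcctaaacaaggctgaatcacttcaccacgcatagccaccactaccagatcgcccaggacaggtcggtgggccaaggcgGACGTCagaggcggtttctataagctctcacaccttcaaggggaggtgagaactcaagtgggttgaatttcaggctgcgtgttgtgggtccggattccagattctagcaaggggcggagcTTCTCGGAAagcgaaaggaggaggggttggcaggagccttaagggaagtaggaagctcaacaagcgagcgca
The STAT motif stood in 1 of the 9 windows and in 8.87% of all 33469 promoters of this length, GACGTC in 2 of 9 (Stat3 and Myd88) and 4.47%, and the C/EBP motif in 1 of 9 (Il1b) and 10.6%. No 2 of these matches overlapped. A match says only that these letters are present, and a window without one says nothing about the factor.

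Deposited signals had a like trimmed mean on every array, 499.4 to 499.9, while their median ran from 90.4 in high-fat 3 to 147 in high-fat 2. Pairs of arrays had a correlation of 0.916 to 0.953 if they shared a group and of 0.885 to 0.959 if they did not. High-fat 2 and probiotic 2 were the most distant arrays along the first principal component. The Actb gap, the log2 signal at the 3′ end of this control transcript minus that at its 5′ end, which grows as RNA breaks down, was 2.11, 3.01 and 2.39 in probiotic 1, 2 and 3 and 1.96, 1.59 and 1.96 in high-fat 1, 2 and 3 (exact two-sided permutation p = 0.1, the smallest that 3 against 3 arrays allow). The same gap for Gapdh was 0.71, 1.49 and 1.23 in probiotic 1, 2 and 3 and 0.52, 0.53 and 0.79 in high-fat 1, 2 and 3. These groups overlapped (exact two-sided permutation p = 0.2). Hepatocyte markers were present on all arrays, with 7 of 7 measured genes above the filter. Their summed deposited intensity, before quantile normalization, was 516474 in high-fat 2 and 255443 to 332822 on the other arrays.

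Stat3 was lower in the probiotic group on both of its probe sets, by different amounts. Probe set 1370224_at had deposited intensities of 543, 1441 and 1444 in probiotic 1, 2 and 3 and of 2763, 5747 and 7446 in high-fat 1, 2 and 3. The groups did not overlap, and high-fat 1 and probiotic 1 were the lowest of their groups. On the log2(intensity + 16) scale after quantile normalization the means were 10.03 ± 0.79 and 12.3 ± 0.74 (SD, n = 3 each), a difference of -2.26 (SE 0.63), or 4.8-fold lower. Probe set 1371781_at had 1159, 1918 and 1489 in the probiotic arrays and 1588, 3763 and 4121 in the high-fat arrays. Here the groups overlapped, because high-fat 1 lay below probiotic 2. The means were 10.55 ± 0.34 and 11.53 ± 0.74 on the log2 scale (SD, n = 3 each), a difference of -0.98 (SE 0.47), or 1.97-fold lower. Across 14 other settings the differences stayed negative, between -2.83 and -1.80 for the first probe set and between -1.41 and -0.75 for the second.

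**Figure D1:**
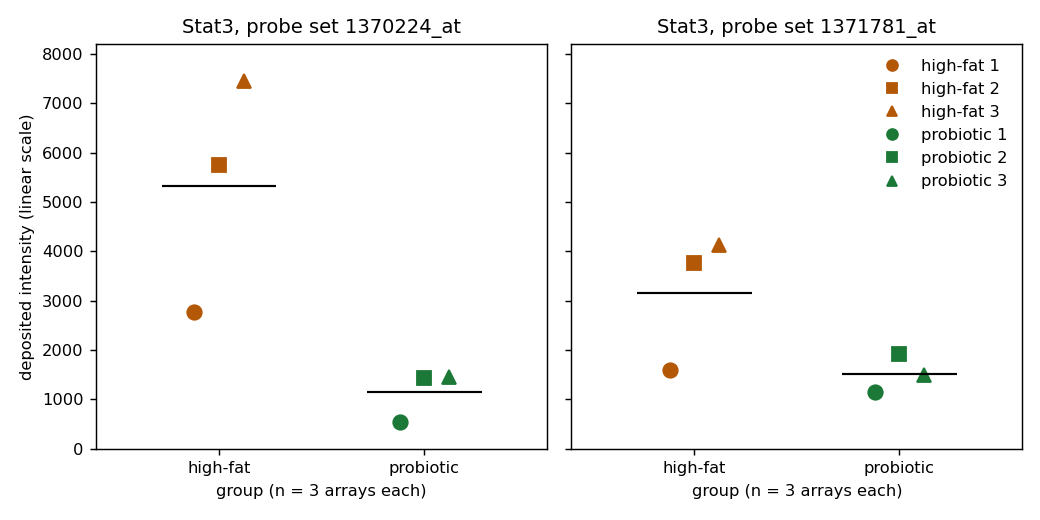
Deposited intensity on a linear scale (y axis) of the Stat3 probe sets 1370224_at (left) and 1371781_at (right) in the high-fat and probiotic groups (x axis). Each symbol is 1 array, its shape gives the replicate number, and the line is the mean of the 3 arrays; on the left the highest probiotic array, at 1444, is below the lowest high-fat array, at 2763, and on the right the groups overlap.

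The gap between the Stat3 probe sets differed between the groups. The intensity of 1370224_at divided by that of 1371781_at was 0.47, 0.75 and 0.97 in probiotic 1, 2 and 3 and 1.74, 1.53 and 1.81 in high-fat 1, 2 and 3. This ratio is taken within an array, so it does not depend on the scaling of the arrays. It may still depend on RNA quality, and the Actb gap was larger in every probiotic array. With that gap in the fit the log2 differences were -2.83 for 1370224_at and -1.18 for 1371781_at. Any part of RNA breakdown in the ratio was not tested. Only the shift of the ratio between groups can be read, since probe sets differ in brightness at equal RNA. It shows that the probe sets differed by unequal amounts, and how each relates to the transcripts of Stat3 was not tested.

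Il1b, which encodes the cytokine IL-1 beta, was lower in the probiotic group. Its probe set 1398256_at had intensities of 212, 85.6 and 214 in probiotic 1, 2 and 3 and of 313, 625 and 560 in high-fat 1, 2 and 3. The groups did not overlap, and probiotic 2 was the lowest array. The log2 difference was -1.47 (SE 0.49), 2.77-fold lower, with means of 7.47 ± 0.67 and 8.94 ± 0.54 (SD, n = 3 each). It was -0.91 without both high-fat 2 and probiotic 2, and -0.54 with the Actb gap in the fit. In a whole liver, fewer cells of a type and less RNA per cell cannot be told apart. Of the macrophage markers listed, 12 of 12 measured genes were lower (median log2 difference -0.37), against 49.5% of all probe sets tested. With limma 0 of the 12 were called after adjustment and 1 at an unadjusted p under 0.05. Over all probe sets tested these shares were 0.0215% and 6.85%, the latter made up of 3.86% lower and 2.99% higher. The summed intensity of the macrophage markers was 18033 to 21310 in the probiotic and 21147 to 26768 in the high-fat arrays, which overlap. Of the neutrophil markers, 4 of 8 passed the filter, 3 of these were lower, and 1 had an unadjusted p under 0.05 with limma (S100a9, a calcium-binding protein gene, log2 difference -1.55), and the summed intensity over the 8 was 429 to 622 in the probiotic and 832 to 1278 in the high-fat arrays, which do not overlap. Without S100a9, a sum added after its values were seen, it was 318, 328 and 301 in probiotic 1, 2 and 3 and 467, 506 and 311 in high-fat 1, 2 and 3, which overlap. Camp, Csf3r, Cxcr2 and Itgam were below the filter, and of these Csf3r was higher in every probiotic array (62.9, 58.8 and 43.4 against 33.5, 14.4 and 4.3). The blood markers went the other way. All 3 measured were higher in the probiotic group at an unadjusted p under 0.05 with limma, 0 after adjustment: Alas2, the heme enzyme of red cell precursors, by 1.06, Hbb, a hemoglobin chain, by 0.72 and Pf4, a platelet chemokine, by 0.94 on the log2 scale. The part of these cells in the Il1b difference was not tested.

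Il1r1, the signalling receptor for IL-1, was lower on all 3 of its probe sets, and on each of them the groups did not overlap. The brightest, 1392946_at, had intensities of 1771, 1412 and 1724 in probiotic 1, 2 and 3 and of 1924, 6073 and 7200 in high-fat 1, 2 and 3. High-fat 1 was thus close to the probiotic arrays, with a gap between the groups of 0.11 on the log2 scale, and high-fat 2 and 3 were far above them. The log2 difference was -1.44 (SE 0.60), 2.72-fold lower. Probe set 1370750_a_at, whose suffix marks probes shared by variant transcripts of a gene, had 133, 111 and 110 in the probiotic and 265, 1543 and 366 in the high-fat arrays. Its log2 difference was -2.02 (SE 0.78), -1.30 without high-fat 2, the highest array, and -1.29 without both high-fat 2 and probiotic 2. Probe set 1369255_at, the dimmest, had 122, 64.9 and 28.5 against 156, 570 and 287, a log2 difference of -1.96 (SE 0.70), or -1.30 with the Actb gap in the fit. With that covariate the other probe sets had -0.98 (1392946_at) and -1.21 (1370750_a_at).

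Il1rn, the natural antagonist of the IL-1 receptor, differed little. Its intensities were 179, 162 and 205 in probiotic 1, 2 and 3 and 212, 220 and 215 in high-fat 1, 2 and 3. On this scale the groups did not overlap, and after quantile normalization they did, with a log2 difference of -0.15 (SE 0.12). That difference was -0.081 without high-fat 3, -0.088 without probiotic 2 and -0.25 without probiotic 3.

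Myd88, the adaptor that carries the IL-1 receptor signal into the cell, had intensities of 2075, 1683 and 1915 in probiotic 1, 2 and 3 and of 1806, 5088 and 3967 in high-fat 1, 2 and 3. High-fat 1 lay among the probiotic arrays, and high-fat 2 and 3 were above all of them. The log2 difference was -0.83 (SE 0.47), -0.49 without high-fat 2, -0.40 without both high-fat 2 and probiotic 2, -1.26 without high-fat 1 and -0.30 with the Actb gap in the fit.

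The IL-6 receptor genes gave smaller differences than Stat3, in both directions. Il6r, the binding chain, had intensities of 968, 2222 and 2812 in probiotic 1, 2 and 3 and of 1014, 2224 and 1506 in high-fat 1, 2 and 3. The groups overlapped, and the arrays numbered 1 were the lowest in each. The log2 difference was 0.25 (SE 0.56), and it ranged from -0.051 without probiotic 3 to 0.69 without probiotic 1. Il6st, the signal chain shared by the IL-6 family, had 4 probe sets with log2 differences of -0.045 (1370957_at, SE 0.39), 0.012 (1371926_at, SE 0.19), -0.069 (1373140_at, SE 0.23) and -0.55 (1383489_at, SE 0.26). The 3 brighter ones each took both signs among the other settings. The fourth and dimmest had intensities of 971, 718 and 935 against 1260, 1652 and 988, which do not overlap, whereas its quantile-normalized values do; its difference was -0.35 without high-fat 2, -0.22 without both high-fat 2 and probiotic 2 and -0.098 with the Actb gap in the fit. High-fat 2 stood apart on 1370957_at, at 10614 against 4646 to 6124 on the other 5 arrays.

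Among the kinases, Jak1 gave 1 probe set at nearly the same level everywhere and 1 lower in part of the probiotic arrays. Probe set 1383478_at ranged from 6656 to 7124 in the probiotic and from 6168 to 7440 in the high-fat arrays, a log2 difference of 0.022 (SE 0.084). Probe set 1384060_at had 2592, 1360 and 1906 in probiotic 1, 2 and 3 and 2477, 2631 and 2814 in high-fat 1, 2 and 3. The low arrays were probiotic 2 and 3, and the log2 difference of -0.50 (SE 0.28) became -0.25 without probiotic 2, -0.24 without both high-fat 2 and probiotic 2 and 0.083 with the Actb gap in the fit. Jak2 had 103, 147 and 129 against 114, 275 and 204. High-fat 1 again lay among the probiotic arrays, and the log2 difference was -0.47 (SE 0.38), -0.27 without high-fat 2 and -0.81 without high-fat 1.

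Socs3, a target of Stat3 and an inhibitor of the IL-6 receptor complex, had intensities of 187, 133 and 110 in probiotic 1, 2 and 3 and of 144, 485 and 282 in high-fat 1, 2 and 3. High-fat 1 was below probiotic 1, and high-fat 2 and 3 were above every probiotic array. The log2 difference was -0.84 (SE 0.52), with means of 7.32 ± 0.31 and 8.16 ± 0.85 (SD, n = 3 each). It was -0.46 without high-fat 2, -0.44 without both high-fat 2 and probiotic 2, -1.30 without high-fat 1 and -0.31 with the Actb gap in the fit.

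**Figure D2:**
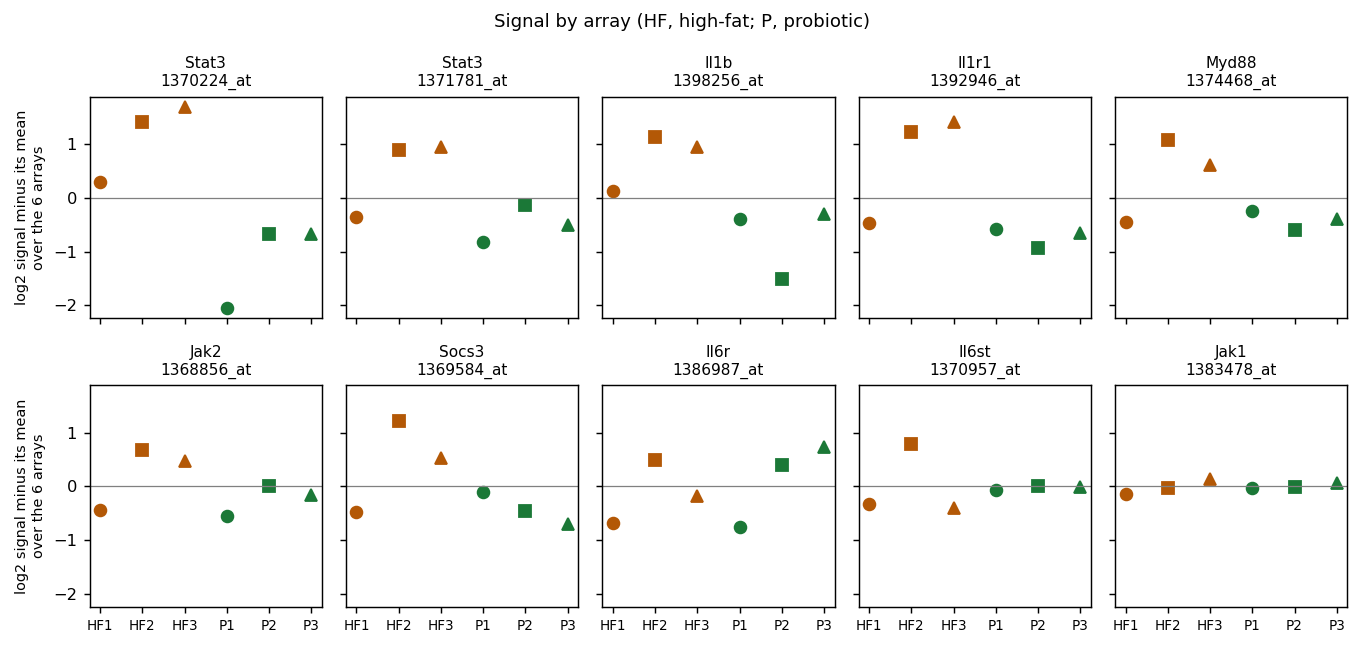
Log2 signal of 10 probe sets, 1 panel each, minus the mean of that probe set over the 6 arrays (y axis), by array (x axis; HF, high-fat; P, probiotic). Each symbol is 1 array; high-fat 1 is close to the probiotic arrays for Il1r1, Myd88, Jak2, Socs3 and the second Stat3 probe set, while Jak1 1383478_at spans only 0.27 over all arrays.

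Over the 17 probe sets, 14 were lower and 3 higher in the probiotic group, with a median log2 difference of -0.55, against 49.5% lower and a median of 0.0042 over all 18625 probe sets tested. On 5 of 17 the probiotic arrays were all below the high-fat arrays, 1 of Stat3, 1 of Il1b and 3 of Il1r1, and this held for 6.7% of all probe sets tested. None of the 17 was entirely higher, which held for 6.02%. The 5 became 6 with median centring, 7 without normalization between arrays and 10 without high-fat 1. With limma 0 of 17 passed an adjusted p of 0.05, against 0.0215% of all probe sets tested, and 7 had an unadjusted p under 0.05, against 6.85%. Nothing is read from these counts, since the genes were chosen with this difference known and probe sets of a gene share their transcript.

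**Figure D3:**
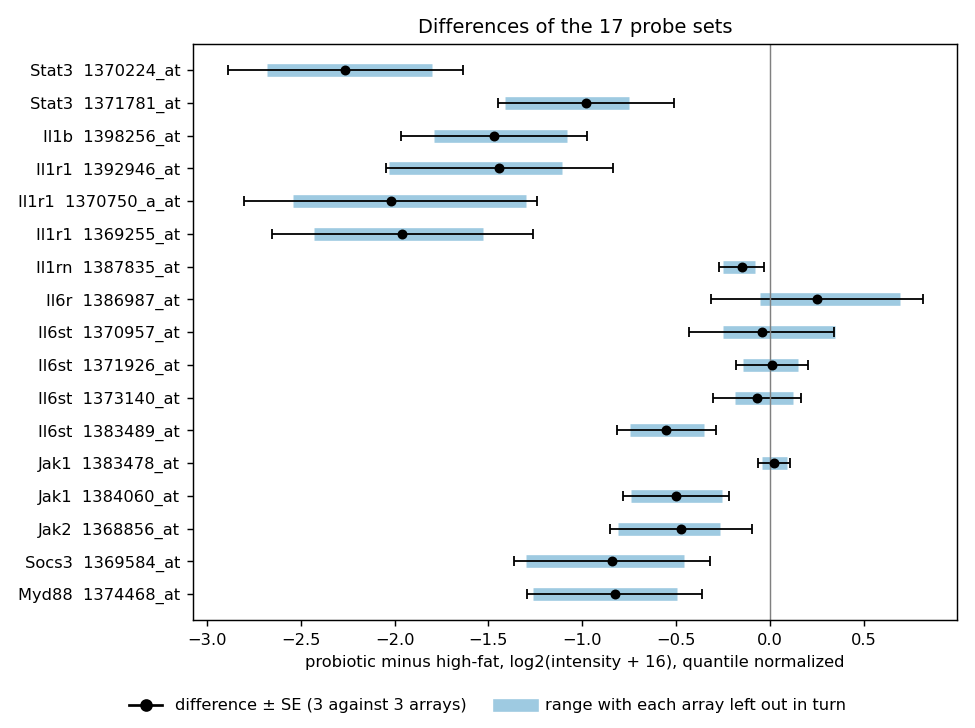
Difference between the group means of each of the 17 probe sets, probiotic minus high-fat, on the quantile-normalized log2(intensity + 16) scale (x axis). Points are the differences with their SE from 3 against 3 arrays, and blue bars are the range when each array was left out in turn; the bars of Stat3, Il1b and Il1r1 stay below -0.75, and those of Il6r, of 3 Il6st probe sets and of Jak1 1383478_at include 0.

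The SD was larger in the high-fat group on 11 of the 17 probe sets and larger in the probiotic group on 6. High-fat 1 was the lowest of its group on 12 of the 17 probe sets and high-fat 2 the highest of its group on 12. The SD of 1392946_at (Il1r1) was 1.03 in the high-fat and 0.19 in the probiotic group, that of Myd88 0.79 and 0.17, and that of Socs3 0.85 and 0.31. In the other direction, the SD of Jak1 1384060_at was 0.065 in the high-fat and 0.48 in the probiotic group, that of Il6r 0.59 and 0.78 and that of Il6st 1371926_at 0.16 and 0.30.

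Likeness to Stat3 was measured as the root mean square difference, over the 6 arrays, between 2 probe sets' log2 values after each had its own mean removed, among 14283 tested probe sets with 1 symbol other than Stat3. Since groups and arrays differ together, it describes these 6 arrays only. Nearest to 1370224_at were Mef2c, a transcription factor, at 0.52, Gdpd1 at 0.53, Dnm1l, the mitochondrial fission GTPase, at 0.57, Nav2 at 0.59 and Kcnj4, a potassium channel subunit, at 0.60. The nearest of the 10 signalling genes were Il1r1 1392946_at, at rank 24 and a distance of 0.70, and Il1b, at rank 79 and 0.84. The other Stat3 probe set lay at 0.72. Nearest to 1371781_at were Zfp9 at 0.14, the tumour necrosis factor receptor gene Tnfrsf1a at 0.19, Bcl3, a nuclear member of the I-kappa-B family, at 0.19, Fga, the fibrinogen alpha chain, at 0.21 and Rnf217 at 0.21. Here Jak2 stood at rank 25 (0.28), Myd88 at rank 65 (0.34) and Socs3 at rank 168 (0.40). In that order Il1r1 1392946_at was at rank 227, Il1b at 2952, and Il1r1 1369255_at and 1370750_a_at at 8383 and 9571. Il6r was at rank 5866 for 1370224_at and at 6750 for 1371781_at. It was thus nearer to 1371781_at than Il1r1 1369255_at and 1370750_a_at were. A small range favours a short distance to a probe set that itself moves little.

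The other genes of the pathway came from 6 lists, with 92 of 102 genes on the array under 1 symbol and 81 above the filter on 112 probe sets. With limma 0 of the 112 passed an adjusted p of 0.05 (smallest 0.726). At an unadjusted p under 0.05 there were 12 lower and 3 higher, against 3.86% lower and 2.99% higher over all probe sets tested. The median log2 difference was -0.058. The lists were drawn up with earlier results of these data known, and the acute phase genes among them had already been seen to be lower, so these counts are no independent support.

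Among ligands and receptors of the IL-6 family, 6 of 16 genes were above the filter, and on their 7 probe sets 4 were lower and 3 higher (median -0.017; 1 of 7 at an unadjusted p under 0.05, higher). That was Il11ra1, the IL-11 receptor, with intensities of 618, 748 and 798 in probiotic 1, 2 and 3 and 550, 321 and 452 in high-fat 1, 2 and 3 (log2 difference 0.74, SE 0.26; limma adjusted p = 0.726). Ctf1, the cytokine cardiotrophin, had a log2 difference of -0.20 (SE 0.28). Il6 itself was below the filter, at 27.5, 48.9 and 51.3 against 49.7, 171 and 30.9, and the groups overlapped. Lifr, the receptor for leukemia inhibitory factor, was also below it. Osmr was not analysed here.

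Of the IL-1 family list, 9 of 14 genes were above the filter, with 6 of 12 probe sets lower and 6 higher (median 0.019; 0 called by limma, and 0 at an unadjusted p under 0.05). Il1rap, the second chain of the IL-1 receptor, ranged from 1969 to 2821 in the probiotic and from 1591 to 2652 in the high-fat arrays. Its log2 difference was 0.12 (SE 0.27; -0.025 on a dimmer probe set). The decoy receptor Il1r2 was below the filter. Il18bp, which binds IL-18, and Pycard, an inflammasome adaptor, had log2 differences of -0.44 (SE 0.21) and -0.35 (SE 0.22).

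The other Janus kinases and STATs gave 4 probe sets lower and 3 higher of 7 (median -0.069; 1 at an unadjusted p under 0.05). Jak3, the kinase of lymphocyte cytokine receptors, had intensities of 111, 60.7 and 148 in probiotic 1, 2 and 3 and 305, 299 and 201 in high-fat 1, 2 and 3, which do not overlap. Its log2 difference was -1.23 (SE 0.35; limma adjusted p = 0.726). Tyk2, which serves the IL-6 receptor beside Jak1 and Jak2, had 0.0032 (SE 0.14) and Stat5b, the STAT of growth hormone signalling, -0.23 (SE 0.20). Stat2, of interferon signalling, had -0.33 (SE 0.35; -0.069 on a dimmer probe set). No STAT among these had a difference as large as that of Stat3 1370224_at.

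On the relay from Myd88 to NF-kB, 15 of 24 probe sets were lower and 9 higher (median -0.073; 2 at an unadjusted p under 0.05, both lower). Irak3, an inhibitory member of the IL-1 receptor kinases, had 194, 140 and 159 in probiotic 1, 2 and 3 and 186, 531 and 671 in high-fat 1, 2 and 3, the pattern seen for Myd88 (log2 difference -1.18, SE 0.56). Chuk, an I-kappa-B kinase, had -0.42 (SE 0.13). Irak1 had -0.11 (SE 0.11; -0.66 on a dimmer probe set), Traf6 0.18 (SE 0.15; 0.32, -0.33 and 0.12 on the others) and Nfkb1 0.13 (SE 0.19). Nfkbia, which holds NF-kB in the cytoplasm, was at 1005, 3477 and 1081 against 983, 887 and 820, so that its log2 difference of 0.77 (SE 0.57) came mostly from probiotic 2. The limma adjusted p of these probe sets was 0.726 to 0.967.

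Inhibitors of JAK-STAT signalling were lower on 11 of 22 probe sets and higher on 11 (median 0.015; 1 at an unadjusted p under 0.05). That was Socs5 1390555_at, with a log2 difference of -0.63 (SE 0.17), while the brighter Socs5 probe set had -0.069. Socs2, which restrains growth hormone signalling, had 0.28 (SE 0.57). Cish, induced by Stat5, had -0.68 (SE 1.27), with intensities from 68.1 to 1382 within the probiotic group alone. A dimmer Cish probe set had -1.69 (SE 1.65). The phosphatase gene Ptpn1 had -0.42 (SE 0.26; -0.0031 on a dimmer probe set). Ptpn11, also a phosphatase gene, had 0.88 (SE 0.53) on its dimmer probe set and -0.22 on the brighter one. Socs1 was below the filter.

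Liver genes known as targets of Stat3 were lower on 24 of 40 probe sets and higher on 16, with a median log2 difference of -0.15. At an unadjusted p under 0.05 there were 8 lower and 2 higher, and 0 passed after adjustment with limma. The 2 higher were probe sets of Igfbp1 and Ccnd1. Igfbp1 had a log2 difference of 1.81 (SE 1.18), and its groups did not overlap. Ccnd1 had 0.74 (SE 0.38; 0.62 and 0.45 on its other probe sets), and its groups overlapped. Hamp, the gene of the iron hormone hepcidin, had intensities of 18464, 22449 and 23503 in probiotic 1, 2 and 3 and 27045, 48929 and 51038 in high-fat 1, 2 and 3, with no overlap (log2 difference -0.88, SE 0.27). Lbp, the lipopolysaccharide-binding protein gene, had 10739, 6885 and 7253 against 10868, 18477 and 16475 (-0.82, SE 0.29). In both, high-fat 1 was the control array nearest to the probiotic group, as for Stat3. Fga 1371258_at had -0.96 (SE 0.37) and the brighter Fga probe set -0.15, Serpina3n, a protease inhibitor, -0.44 (SE 0.099) and Fgb, the fibrinogen beta chain, -0.29 (SE 0.055; -0.44 and -0.23 on dimmer probe sets). A2m, the rat acute phase macroglobulin, had -1.65 (SE 1.65), with 7653 in high-fat 2 and 155 in high-fat 1.

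The early response genes on that list had differences of both signs. Junb had a log2 difference of -0.17 (SE 1.18), with 3040 in probiotic 2 and 354 in probiotic 1. Myc had 1.49 (SE 1.25), with 2762 in probiotic 2 and 147 to 514 in the other probiotic arrays. The transcription factors Cebpb and Cebpd had 0.28 (SE 0.51) and 0.21 (SE 0.32; -0.86 and 0.15 on other probe sets), and the kinase gene Pim1 0.66 (SE 0.29). The limma adjusted p over the named targets ran from 0.726 to 0.972.

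**Figure D4:**
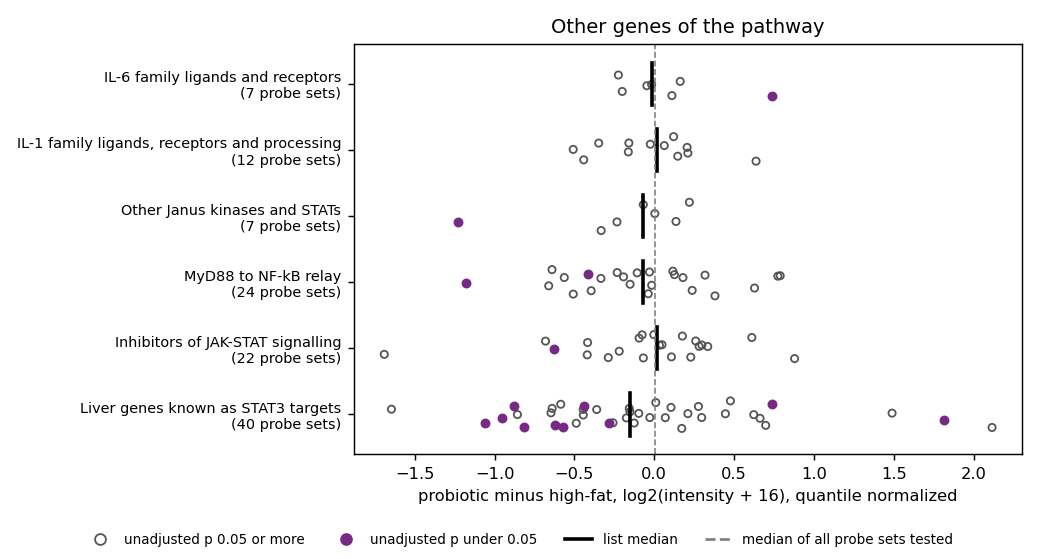
Log2 difference, probiotic minus high-fat (x axis), of each tested probe set in the 6 lists of other pathway genes (rows). Filled points have an unadjusted p under 0.05, black bars are list medians and the dashed line is the median of all probe sets tested; the STAT3 targets have the lowest median, -0.15, and the other 5 medians lie between -0.073 and 0.019.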

How the data were processed

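Each probe set has 1 linear intensity per array as the authors deposited it; which software summarised the probes is not given in the sources used here. Per the labels' protocols, biotin-labelled cRNA was made from 8 ug of liver RNA and hybridised to 1-colour Affymetrix arrays. Samples were grouped by their titles. Here log2(intensity + 16) was quantile normalized, which removes group differences in the overall distribution. The 57 control probe sets and those with a mean below the 40th percentile were not tested, which left 18625. Symbols came from the platform annotation; 20758 of 20826 single symbols matched the GRCr8 RefSeq table. The difference between groups was fitted by limma 3.58.1 under R 4.3.3 (lmFit, eBayes with trend, two-sided, Benjamini-Hochberg over all probe sets tested, threshold 0.05), and SEs are unmoderated. The script was tested on simulated data. Figures used matplotlib 3.10.9.

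The members and lists were chosen with earlier results of these data known. Named genes were all members, a fixed set by their brightest probe set, and the 2 further genes of smallest unadjusted p in each list. Igfbp1 and Ccnd1 were named outside this rule, as the Stat3 targets counted as higher. Alternatives covered normalization, filter, pseudocount (1 and 64), variance model, array weights, replicate number, the Actb gap and left-out arrays. With 3 arrays a group precision is low, and p-values measure the spread between these samples.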

Additional observations from a re-analysis of the deposited data

How the results depend on the processing

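The log2 differences of both Stat3 probe sets kept their sign under all 14 alternatives run. Leaving out each array in turn gave -2.68 to -1.80 for 1370224_at and -1.41 to -0.75 for 1371781_at. Of 210 values for the other 15 probe sets, 19 changed sign, on 6 probe sets of Il6r, Il6st and Jak1. Most of the 210, 205, moved by less than the spread between replicates. Of the 5 that moved further, 2 also changed sign: with the Actb gap in the fit Il6st 1371926_at had -0.25 and Jak1 1384060_at 0.083. The probe sets lower numbered 12 to 17 of 17 with an array left out, and those lower with no overlap, a count added after seeing the data, 5 to 10. No pathway probe set passed after adjustment under any of the 17 alternatives run. The unadjusted pathway count was 15, against 6.85% of all probe sets tested. With an array left out it ran from 6 without high-fat 2 (4.27% of all probe sets tested) to 25 without probiotic 1 (9.51%). It was 9 without the intensity trend (6.13%), 2 with the covariate (2.38%) and 7 without both high-fat 2 and probiotic 2 (3.77%). The share over all probe sets thus moved with the setting too, and the cause was not tested.

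Samples share replicate numbers, but same-numbered samples did not deviate together beyond 0.144, 0.027 and 0.077 (correlations over probe sets, numbers 1 to 3). Probiotic 2 went better with high-fat 3 (0.067), and each other sample went best with its own number. With the replicate block the unadjusted pathway count was 18, while the share over all probe sets tested rose from 6.85% to 8.2%. The Stat3 1370224_at difference was then -2.26 with an SE of 0.093. The 17 probe sets were chosen by this difference, so limma's calls among them support nothing: there was 1 with the block, 1 without high-fat 1 (Il1r1 1392946_at) and 0 under the other 15 alternatives.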
